A study of Sus scrofa with 12 samples.

Results

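The 9 genes described here, *GBP1*, *GBP2*, *GBP5*, *IRF1*, *CXCL9*, *CXCL10*, *CIITA*, *IFI30* and *CD74*, are induced by interferon gamma, and they were followed through loin muscle (*Longissimus dorsi*) of 12 Iberian pigs. They were chosen by name, as known interferon gamma response genes, out of 28212 genes annotated on the chromosomes of Sscrofa11.1, of which 13311 were assigned a transcript in 1 library or more. *GBP5* carries the identifier LOC100523492 in this annotation. The pigs were purebred, castrated males fattened outdoors on acorns and grass, without any treatment, and each gave 1 RNA-seq library of whole muscle. The 6 Tough animals (estimated breeding values for shear force from 1.76 to 2.40, shear force from 7.32 to 10.63 kg/cm2) were set against the 6 Tender animals (breeding values from -1.09 to -0.98, shear force from 2.18 to 3.43 kg/cm2). The groups are the 2 extremes of a breeding value and not a treatment and its control, each animal is its own replicate, and Tender 7 was not analysed here.

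Interferon gamma is the cytokine by which T lymphocytes and natural killer cells activate macrophages and make other cells display antigens. It binds a receptor made of IFNGR1 and IFNGR2, the kinases JAK1 and JAK2 pass the signal on, and it reaches promoters at the gamma-activated site (GAS). *IRF1* is among the first genes so induced, and its product binds interferon-stimulated response elements (ISRE) in later targets, while *CIITA* encodes the activator that switches on the MHC class II genes. In humans and mice the guanylate-binding proteins (GBP) are GTPases that attack intracellular microbes, CXCL9 and CXCL10 draw activated T cells through the receptor CXCR3, CD74 is the invariant chain that guides class II molecules to the endosome, and IFI30 reduces disulfide bonds of proteins there before peptides are loaded. In muscle such genes are best known from inflammation, when muscle fibres, endothelium and infiltrating cells display MHC molecules.

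Most promoters of the genes carry the letters of one of these elements. Shown here are the 250 bases before the annotated start of 5 of them in the Sscrofa11.1 RefSeq genome, written in the direction of transcription, with matches to the GAS letters TTCNNNGAA or the ISRE letters (GAAA, any 2 bases, GAAA), on either strand, in capitals.
GBP1 (chr4:127426154-127426403, plus strand): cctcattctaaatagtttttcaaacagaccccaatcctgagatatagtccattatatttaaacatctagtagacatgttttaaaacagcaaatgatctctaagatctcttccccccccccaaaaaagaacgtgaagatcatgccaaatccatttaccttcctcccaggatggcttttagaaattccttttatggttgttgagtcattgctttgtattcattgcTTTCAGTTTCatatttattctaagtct
IRF1 (chr2:134783647-134783896, minus strand): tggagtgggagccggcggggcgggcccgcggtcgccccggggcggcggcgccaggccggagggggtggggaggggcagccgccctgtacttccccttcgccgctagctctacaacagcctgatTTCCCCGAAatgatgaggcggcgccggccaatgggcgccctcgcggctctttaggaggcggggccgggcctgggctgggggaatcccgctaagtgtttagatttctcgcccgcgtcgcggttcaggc
CXCL9 (chr8:71670237-71670486, minus strand): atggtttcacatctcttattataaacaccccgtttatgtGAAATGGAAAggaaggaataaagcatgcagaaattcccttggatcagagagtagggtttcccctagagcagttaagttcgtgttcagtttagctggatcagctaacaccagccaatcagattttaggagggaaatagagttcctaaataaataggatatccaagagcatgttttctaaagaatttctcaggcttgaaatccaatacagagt
CXCL10 (chr8:71695949-71696198, minus strand): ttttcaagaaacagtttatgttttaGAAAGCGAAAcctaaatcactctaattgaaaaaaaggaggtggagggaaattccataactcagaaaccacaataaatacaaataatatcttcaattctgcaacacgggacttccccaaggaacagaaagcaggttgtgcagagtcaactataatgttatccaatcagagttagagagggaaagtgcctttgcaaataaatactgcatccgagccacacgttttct
CIITA (chr3:32218832-32219081, minus strand): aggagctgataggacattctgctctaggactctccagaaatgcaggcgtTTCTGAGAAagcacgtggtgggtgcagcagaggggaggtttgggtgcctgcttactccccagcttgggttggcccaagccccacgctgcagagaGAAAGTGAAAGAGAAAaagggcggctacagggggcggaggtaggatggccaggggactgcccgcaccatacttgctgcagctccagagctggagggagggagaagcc
These 5 were chosen because they hold the regulators and the genes that moved most. Counted from the annotated start, the ISRE match of *GBP1* begins at position -27, that of *CXCL9* at -211 and that of *CXCL10* at -225. The GAS match of *IRF1* begins at -127, and *CIITA* holds a GAS match at -201 and 2 overlapping ISRE matches that begin at -107 and -101. Within a window of 300 bases, from 250 before to 50 after the start, 6 of the 9 genes held an ISRE match (*GBP1*, *GBP2*, *CXCL9*, *CXCL10*, *CIITA* and *IFI30*), against 3.66% of 19559 promoters of protein-coding genes. A GAS match was held by 3 of the 9 (*GBP5*, *IRF1* and *CIITA*), against 7.004% of all promoters, and *CD74* held neither in its window. That window was set on the start of a RefSeq transcript at 151409679, inside the gene, which ends at 151409924. The highest transcript of *CD74* near it in Tender 2 began 345 bases upstream, and the bases before that point were not scanned. A match is a description of the sequence and no evidence of binding. The transcript that was highest at these starts in Tender 2, the library in which most of the 9 genes peaked, began close to the annotated start, 9 bases upstream of it for *GBP1*, 10 for *CXCL10*, 14 for *CIITA*, 26 for *CXCL9* and 110 for *IRF1*.

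The level of a gene was read from the assembled transcripts in 2 ways, both in FPKM (fragments scaled to the length of the transcript and the depth of the library). The first adds up the transcripts that lie to at least 50% in the exons of the gene. The second, the intron level, is the mean over the annotated introns of the summed FPKM of the transcripts that carry that exact intron. It was added after the values were seen, because the first rule loses or mixes genes, with 3 places given here. *CXCL9* is annotated with 450 exonic bases, while its assembled transcript had 2327 bases in Tender 2 and 2615 in Tough 1, so that neither was assigned. *CIITA* overlaps unspliced or single-intron transcripts at its 3′ end, which reached 36.3 FPKM in Tender 5 and carry none of its annotated introns. In the GBP cluster on chromosome 4, transcripts that begin near *GBP5* run into *GBP1*. A gene listed at 0 has no such transcript in that library, which can be a failed assembly: *CKM*, one of the most abundant muscle genes, is listed at 0 in 4 of the 12 libraries by introns, Tender 2 among them. The files hold no read counts, so errors are the SD over animals and, for a single transcript, the 95% interval that Cufflinks gave.

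No test run here separated the Tough from the Tender group in these genes, and 1 animal stood apart from the other 11. In Tender 2, the animal with the lowest shear force, 8 of the 9 genes had their highest intron level of the 12 libraries. Of the 8960 genes with a mean above 0.5 FPKM by introns, 14.2% were highest there. Among the 8, *GBP5* had no transcript of its own, and *CIITA*, *CD74* and *CXCL9* were not highest in Tender 2 by assigned transcripts. *GBP1* stood 59.7 times above the median of the other 11 libraries, *CXCL10* 29.1 times, *IRF1* 26.2 times and *CXCL9* 24.4 times, while *IFI30*, *CIITA* and *CD74* stood 5.62, 5.31 and 4.26 times above it. Tender 2 was singled out by these values, so they describe 1 animal and carry no test. Whether more cells with these transcripts or more RNA per cell raised them cannot be told apart in whole muscle.

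**Figure D1:**
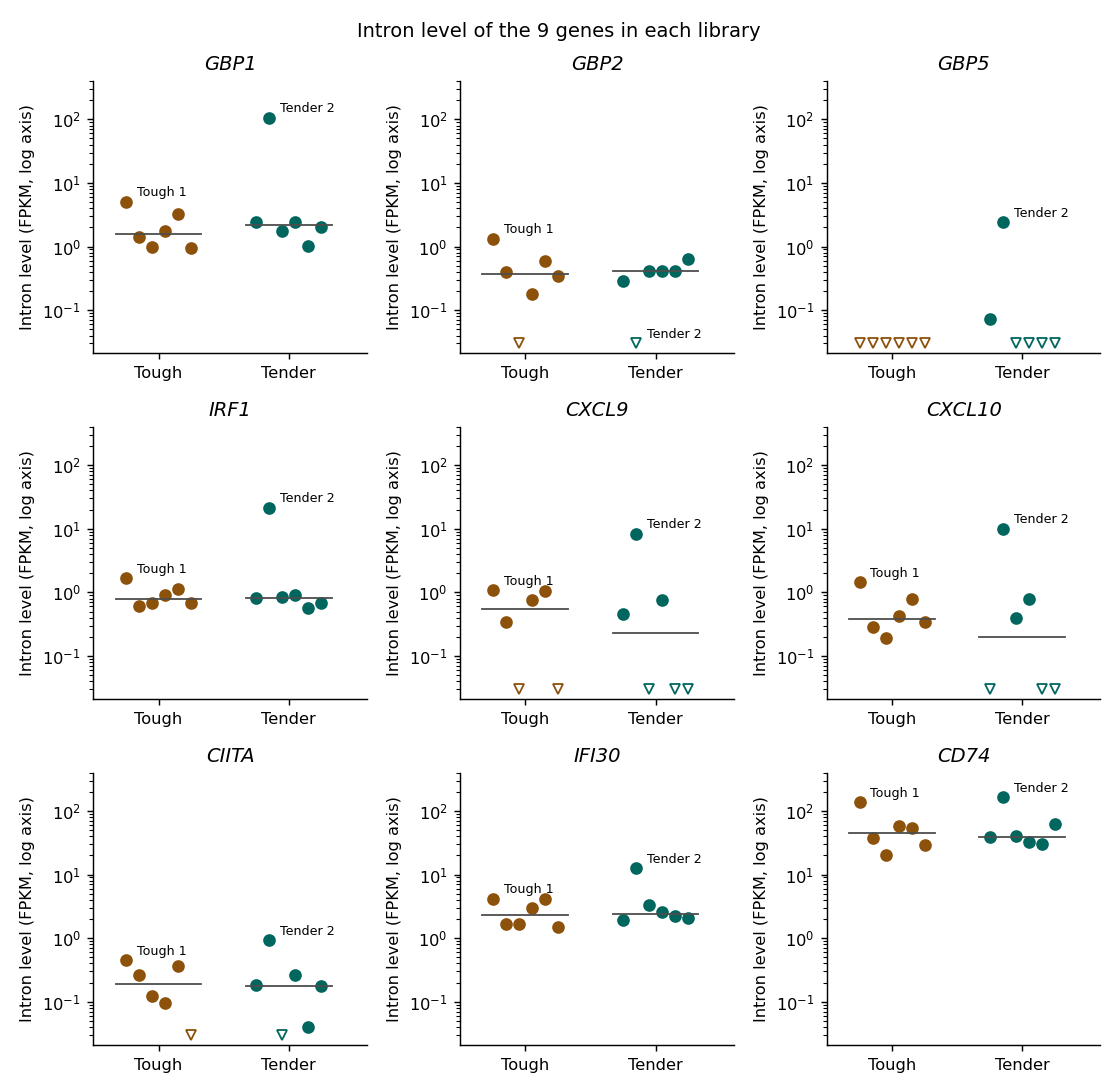
Intron level in FPKM (log axis) of the 9 genes in the 6 Tough and 6 Tender libraries, 1 point a library, with the median of a group as a line where it is above 0; open triangles mark libraries listed at 0. In 8 panels the highest point is Tender 2, and the exception is *GBP2*, where it is listed at 0, and the other Tender libraries overlap the Tough libraries.

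*IRF1*, the transcription factor that carries the signal on, lies on chromosome 2 from 134776122 to 134783646. Its intron level had a lowest, median and highest value of 0.612, 0.794 and 1.68 FPKM in the Tough libraries, against 0.559, 0.830 and 21.5 FPKM in the Tender libraries. The highest Tender value is Tender 2, and the other 5 Tender libraries reached at most 0.915 FPKM, inside the range of the Tough libraries. The main transcript of Tender 2 had 23.9 FPKM with an interval from 22.5 to 25.3, against 1.25 FPKM with an interval from 0.991 to 1.51 in Tough 1, and 9 of its 10 annotated introns were assembled in both.

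*CIITA*, the class II activator on chromosome 3 from 32171706 to 32230775, was low. Its intron level was 0, 0.192 and 0.451 FPKM (lowest, median and highest) in the Tough libraries, against 0, 0.178 and 0.933 FPKM in the Tender libraries. Tender 2 was again the highest, and there 20 of the 27 annotated introns were assembled, with the longest transcripts spanning 19 introns each, while Tough 1 had 19 introns assembled and 2 libraries, Tough 6 and Tender 3, had none. By assigned transcripts the order was another one, with 1.65 to 2.29 FPKM in the Tough libraries, against 0.608 FPKM in Tender 2 and 0.174 to 3.05 FPKM in the rest of the Tender group. In Tender 2 and Tender 4 the 3′ transcript lay to only 26.5% and 40.8% in the gene and was not assigned, while in the other 10 libraries such transcripts, without an intron of *CIITA*, were counted.

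The guanylate-binding proteins lie side by side on chromosome 4. *GBP1*, from 127425699 to 127442132, had a lowest, median and highest intron level of 0.961, 1.59 and 5.06 FPKM in the Tough libraries, against 1.02, 2.204 and 106 FPKM in the Tender libraries. Without Tender 2 the Tender libraries ended at 2.40 FPKM, below the highest Tough library. Assigned transcripts gave 169.9 FPKM for *GBP1* in Tender 2 and the level per exon base gave 119. The first of these also counts the bases of a transcript that lie outside the exons of the gene. *GBP7* (LOC100155195), its neighbour and no member of the 9, stood at 93.0 FPKM in Tender 2 and at 0 to 1.59 FPKM in the other 11 libraries by introns, and *GBP6* (LOC100523310) at 3.97 FPKM against 0 to 0.516.

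In 11 of the 12 libraries part of the *GBP1* signal came from transcripts that start beyond *GBP2*, near *GBP5* or between both, and are joined to the later exons of *GBP1*. They made up 37.3% of the *GBP1* FPKM in Tender 2, where the transcript with its own start had 79.3 FPKM (interval from 75.8 to 82.9). In the other libraries with such transcripts they made up 36.6% to 100%, and Tender 5 had none. *GBP5* had no transcript of its own in any library. Its intron level of 2.42 FPKM in Tender 2 and 0.0716 FPKM in Tender 1 rests on 1 of 12 introns, carried by these joined transcripts, and the other 10 libraries, all Tough libraries among them, are listed at 0. Per exon base *GBP5* had 4.24 FPKM in Tender 2, 0 to 0.208 FPKM in the Tough libraries and at most 0.0899 FPKM in the rest of the Tender group.

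*GBP2*, on the minus strand from 127387222 to 127408729 and so inside the span of the joined transcripts, is the exception among the 9 genes. Its intron level was 0, 0.369 and 1.34 FPKM (lowest, median and highest) in the Tough libraries, against 0, 0.415 and 0.629 FPKM in the Tender libraries. It is listed at 0 in Tender 2 and in Tough 3, and Tough 1 had the highest value. The RefSeq transcripts of *GBP2* and *GBP1* are 78.7% identical over their aligned bases and share 37 of the 2122 windows of 76 bases, the read length in the labels, while *GBP1* and *GBP5* share 112 of 2900 such windows and *GBP1* and *GBP7* none. The GBP2-like gene LOC100523668 is 91.1% identical to *GBP2* and had at most 1.24 FPKM per exon base, in Tender 2. Reads of *GBP2*, *GBP5* and the GBP2-like copy can therefore be split between copies and their levels are uncertain, and the part of this in the value of 0 in Tender 2 was not tested.

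The chemokines *CXCL9* and *CXCL10* lie close to each other on chromosome 8, from 71665541 to 71670236 and from 71693641 to 71695948. *CXCL9* had an intron level of 0, 0.551 and 1.09 FPKM (lowest, median and highest) in the Tough libraries, against 0, 0.229 and 8.32 FPKM in the Tender libraries. It is listed at 0 in 2 Tough and 3 Tender libraries, and the value of Tender 2 has an interval from 7.80 to 8.85 FPKM. *CXCL10* had 0.190, 0.383 and 1.43 FPKM in the Tough libraries, against 0, 0.198 and 10.02 FPKM in the Tender libraries, of which 3 are listed at 0. Tough 1 was the second library for both chemokines, and Tender 2 was 7.67 times above it for *CXCL9* and 6.99 times for *CXCL10*. The third ligand of their receptor, *CXCL11*, was assembled only in Tender 2 of the 12 libraries, at 0.458 FPKM.

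The antigen-handling genes had the highest medians of the 9 and were assembled in every library. *CD74*, on chromosome 2 from 151402210 to 151409924, had an intron level of 20.2, 45.7 and 138 FPKM (lowest, median and highest) in the Tough libraries, against 30.3, 39.3 and 163 FPKM in the Tender libraries. The highest libraries of both groups, Tender 2 and Tough 1, were only 1.18 times apart, and by assigned transcripts the order turned, with 192 FPKM in Tender 2 and 226 in Tough 1. The transcripts counted in Tough 1 lay to only 63.1% and 63.8% in *CD74*, those of Tender 2 to 94.2% and 93.5%. Per exon base, which leaves the bases outside the gene out, Tender 2 had 180 FPKM and Tough 1 had 144. *IFI30*, on chromosome 2 from 59629762 to 59633714, had 1.48, 2.34 and 4.17 FPKM in the Tough libraries, against 1.95, 2.43 and 12.6 FPKM in the Tender libraries. All 6 of its introns were assembled in every library, and Tender 2 was 3.02 times above Tough 1.

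The other 11 libraries had an order of their own. Tough 1 was the highest of them in 8 of the 9 genes, all but *GBP5*, and Tough 5 the second in 6. For scale, 16.9% of 8960 genes were highest in Tough 1 over all 12 libraries. The shares of all genes over these 11 libraries were not counted. The span of these 11 libraries was 2.81-fold for *IFI30*, 3.00-fold for *IRF1*, 5.26-fold for *GBP1* and 6.84-fold for *CD74*. Over the 21 pairs of the 7 genes measured in at least 9 libraries, the correlation of log2(FPKM + 0.5) had a median of 0.70 without Tender 2, from 0.46 to 0.91 (n = 11), and a median of 0.47, from 0.082 to 0.83, when Tough 1 was left out as well (n = 10). With all 12 libraries the pairs without *GBP2* ran from 0.75 to 0.99, and those of *GBP2* from -0.34 to 0.25. These are descriptions, since the genes of a library share its depth and its makeup of cells.

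Tender 2 was read against all genes measured by introns. Of the 8960 genes with a mean above 0.5 FPKM, 14.2% had their highest level in Tender 2, 0.536% were there at least 2-fold above the second library and 0.167%, or 15 genes, at least 4-fold. Of the 9 genes, 6 passed the filter, and all 6 were highest in Tender 2, 5 of them by at least 2-fold and 4 (*GBP1*, *IRF1*, *CXCL9* and *CXCL10*) by at least 4-fold. *CXCL9* and *CXCL10* pass the filter only through Tender 2, so their part of this count follows from the filter. By assigned transcripts the shares were 13.7%, 0.537% and 0.197% of 9127 genes, and 4, 4 and 3 of the 6 genes that passed. Over all 8960 genes, 254 were at least 2-fold above the median of the other libraries in Tender 2, against 284 in Tough 1 and 667 in Tender 4.

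**Figure D2:**
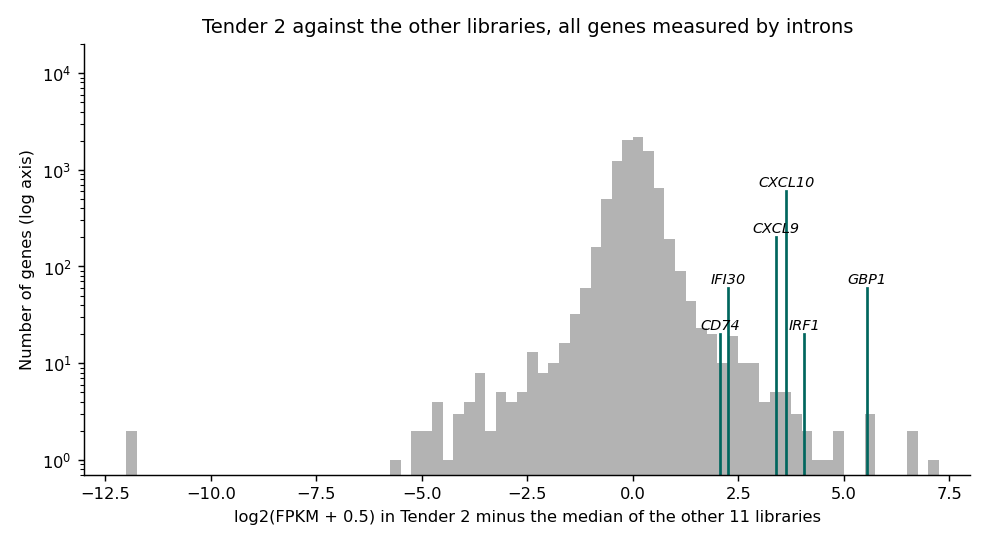
Number of genes (log axis) by the difference of log2(FPKM + 0.5) between Tender 2 and the median of the other 11 libraries, for 8960 genes measured by introns, with the 6 of the 9 genes that passed the filter marked. Most genes lie near 0, with a median of 0.046, while the marked genes lie between 2.08 for *CD74* and 5.55 for *GBP1*.

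The comparison of the groups asks whether muscle that will be tough differs in these genes from muscle that will be tender. limma on log2(FPKM + 0.5) with Benjamini-Hochberg adjustment over all 9127 genes tested called 0 genes, or 0% of them. An unadjusted p up to 0.05 was reached by 2.44% of the genes, 66 (0.723%) higher in the Tough group and 157 (1.72%) higher in the Tender group. That split moved with the scaling of the libraries, to 145 and 139 genes with median-of-ratios scaling and 143 and 145 with quantile normalization. An exact Wilcoxon test gave 192 such genes and 0 calls. None of the 6 tested genes of the 9 was at that level. *GBP1* averaged 2.58 ± 1.81 FPKM in the Tough group and 30.3 ± 68.4 FPKM in the Tender group (SD, n = 6 each, assigned transcripts), with a log2 fold change, Tough over Tender, of -1.02 (SE 0.95, limma, adjusted p = 1.00; exact permutation test, two-sided, p = 0.569). Without Tender 2 the Tender mean was 2.36 ± 0.790 FPKM (SD, n = 5) and the log2 fold change -0.028 (SE 0.36).

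The other 5 tested genes had smaller fold changes, and 3 of them changed sign without Tender 2. The log2 fold change of *IRF1* was -0.52 (SE 0.63) with all libraries and 0.15 (SE 0.20) without Tender 2, that of *IFI30* -0.27 (SE 0.41) and 0.096 (SE 0.26), and that of *CD74* -0.11 (SE 0.50) and 0.22 (SE 0.45). *CXCL10* had -0.18 (SE 0.65) and fell under the filter without Tender 2. *CIITA* had 0.41 (SE 0.35) and 0.27 (SE 0.35), by values that count its 3′ transcripts in all libraries but Tender 2 and Tender 4. The exact permutation p of these 5 genes ran from 0.5 to 0.887, two-sided, over all splits of the animals into 6 and 6, the smallest p that this design allows being 0.00216. *GBP2*, *GBP5* and *CXCL9* were under the minimum of 0.5 FPKM and have no test by assigned transcripts. By introns 3.19% of 8960 genes reached that unadjusted level, 0.826% with the higher value in the Tough and 2.37% in the Tender group, and none of the 9 was among them. On that measure *CXCL9* had -0.17 (SE 0.63, limma, adjusted p = 1.00), and *GBP2*, *GBP5* and *CIITA* were under the minimum.

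**Figure D3:**
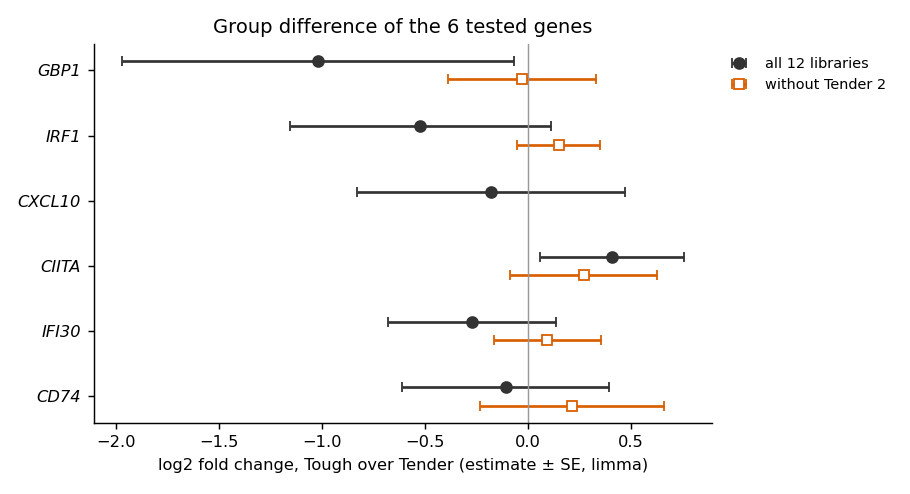
log2 fold change, Tough over Tender, with its SE from limma on assigned transcripts, for the 6 tested genes with all 12 libraries (filled circles) and without Tender 2 (open squares; *CXCL10* then fell under the filter). The estimate of *GBP1* moves to -0.028 without Tender 2, and those of *IRF1*, *IFI30* and *CD74* change sign.

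The cytokine itself was not seen. *IFNG* is listed at 0 in all 12 libraries, which says that no transcript of it was assembled, not that it is absent. Of the 13 tested genes of its signalling pathway, 6 were highest in Tender 2, with a median difference from the other 11 libraries of 0.37 on the log2 scale, against 0.046 over all 8960 genes. *IRF9*, a transcription factor of the interferon response, had 19.8 FPKM in Tender 2, against a median of 2.84 and a maximum of 9.17 FPKM in the others, *STAT2* 4.86 against a maximum of 2.89, and *SOCS3*, a feedback inhibitor, 2.84 against a maximum of 1.79 FPKM. The receptor chains *IFNGR1* and *IFNGR2* stood at 1.95 and 11.095 FPKM in Tender 2, and the kinases *JAK1* and *JAK2* at 16.8 and 0.553 FPKM, all 4 inside the range of the other libraries.

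Other targets of interferon gamma were often highest in the same animal. Among 20 tested genes of a list of such targets, 12 were highest in Tender 2 and 10 were at least 2-fold above the median of the other libraries, with a median difference of 1.00 on the log2 scale. After *GBP7*, the highest was *UBD*, a ubiquitin-like protein that marks others for the proteasome, at 20.2 FPKM in Tender 2, against a maximum of 2.04 FPKM elsewhere. The chemokines *CCL2*, which draws monocytes, and *CCL5*, which draws T cells, stood at 14.2 and 5.56 FPKM in Tender 2, against at most 5.09 and 2.95 FPKM in the others. *WARS*, a tRNA synthetase, had a log2 fold change of -0.45 between the groups (limma on introns, adjusted p = 1.00), with a higher mean in the Tender group. The median over the tested targets was -0.19 with all libraries and 0.0026 without Tender 2. *B2M* is annotated at more than 1 place and its reads can be split, so its value is not used.

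Genes that cut peptides and load them on MHC class I molecules had the largest share at its highest in Tender 2 among the lists beside the 9 genes. There 14 of 16 tested were at their highest, with a median difference of 2.49 on the log2 scale. *PSMB9* and *PSMB8*, subunits of the immunoproteasome, stood at 36.1 and 46.6 FPKM in Tender 2, against a maximum of 3.05 and 7.86 FPKM in the other 11 libraries, and *TAP1*, a chain of the peptide transporter, at 47.5 and at most 5.44 FPKM. *TAP2*, the other chain, stood at 13.0 against at most 3.15 FPKM. *SLA-1*, with 45.3 FPKM in Tender 2 and up to 63.4 FPKM in Tender 4, and *SLA-3*, with 72.1 FPKM against at most 27.7, are near-identical MHC genes whose reads can be split. The smallest p between the groups was that of *TAPBPL*, an editor of the peptide load (log2 fold change -0.43), followed by *TAPBP* (-0.56), both with a higher mean in the Tender group (limma on introns, adjusted p = 1.00 for both). Over the tested genes of this list the median log2 fold change was -0.38 with all libraries and -0.0084 without Tender 2.

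Class II genes, the targets of *CIITA*, had a smaller median difference. Of 16 tested, 9 were highest in Tender 2 and 7 at least 2-fold above the median of the others, with a median difference of 0.67 on the log2 scale. *SLA-DOA*, which restrains peptide loading, stood at 5.22 FPKM in Tender 2, against a maximum of 0.925 elsewhere, *SLA-DRA* at 75.9 and at most 44.5, *SLA-DQA1* at 39.8 and at most 24.5, and *SLA-DMB* at 10.9 and at most 5.27 FPKM. The factors that join *CIITA* at these promoters, *RFXAP*, *RFXANK*, *CREB1*, *NFYA* and *NFYB*, were not at their highest in Tender 2, while *RFX5* was, at 2.53 against at most 2.13 FPKM, and *NFYC*, at 5.47 against at most 4.92 FPKM.

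**Figure D4:**
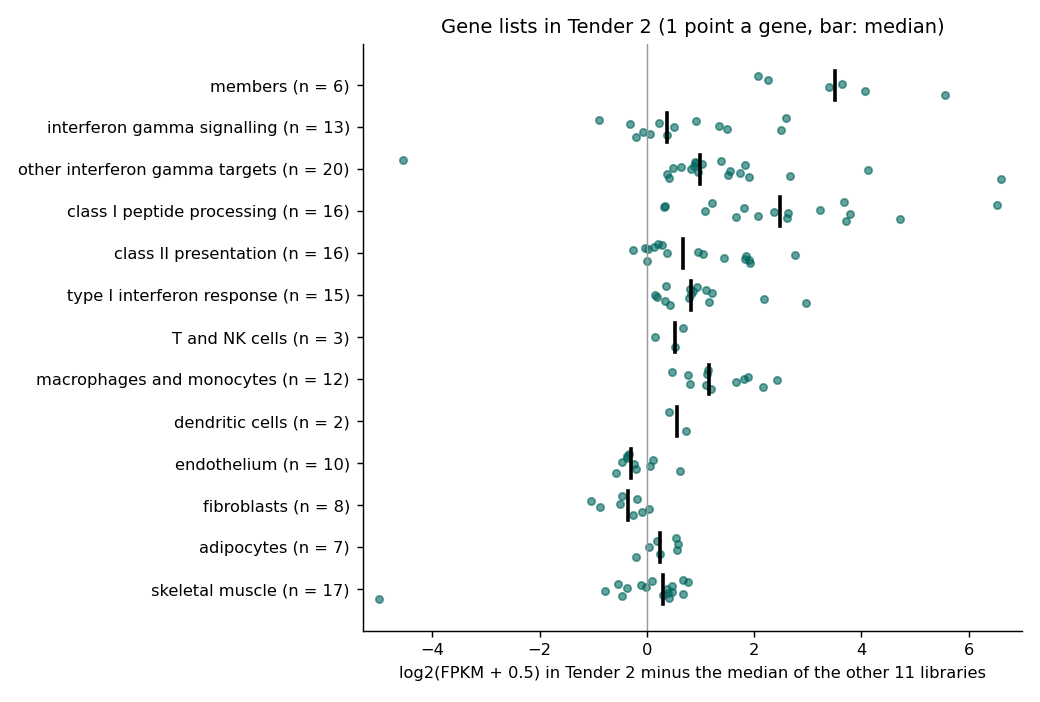
Difference of log2(FPKM + 0.5) between Tender 2 and the median of the other 11 libraries for the tested genes of 13 lists, on introns, with the median of each list as a bar; the point at the left edge of skeletal muscle is *CKM*, listed at 0 in Tender 2 and drawn at -5. The 6 of the 9 genes that passed the filter, drawn as members, have the highest median, and class I peptide processing follows with 2.49. *CXCL9* and *CXCL10* pass the filter only through Tender 2, so the median of the members follows in part from the filter.

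The genes of the type I interferon response mostly peaked in another animal. Of 15 tested, 14 were highest in Tough 1, against 16.9% of all 8960 genes, and 1, *ISG15*, in Tender 2. They stood above the other libraries in Tender 2 as well, with a median difference of 0.83 on the log2 scale and 5 of 15 at least 2-fold above the median of the others. Their sum was 16.4 to 175 FPKM in the Tough libraries, against 97.7 FPKM in Tender 2 and 17.5 to 63.9 FPKM in the rest of the Tender group. *OAS1*, an antiviral sensor of double-stranded RNA, had 9.19 FPKM in Tender 2 and 32.4 in Tough 1, against a median of 1.63 FPKM over the 11 libraries other than Tender 2. *IFI6* had 12.4 FPKM in Tender 2 and 44.7 in Tough 1, and *MX1*, an antiviral GTPase, 1.02 and 4.99. *ISG15*, a ubiquitin-like modifier, went the other way, with 23.7 FPKM in Tender 2 and 7.53 in Tough 1. *GBP1*, for comparison, had 106 FPKM in Tender 2 and 5.06 in Tough 1. *IFIT1*, an antiviral RNA-binding protein, stood at 3.52 FPKM in Tender 2 and 4.67 in Tough 1, and *IFI44L* at 4.69 and 4.75. Between the groups the smallest p of this list were those of *MX1* (log2 fold change 0.43) and *BST2* (0.34), with an adjusted p of 1.00 for both (limma on introns).

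**Figure D5:**
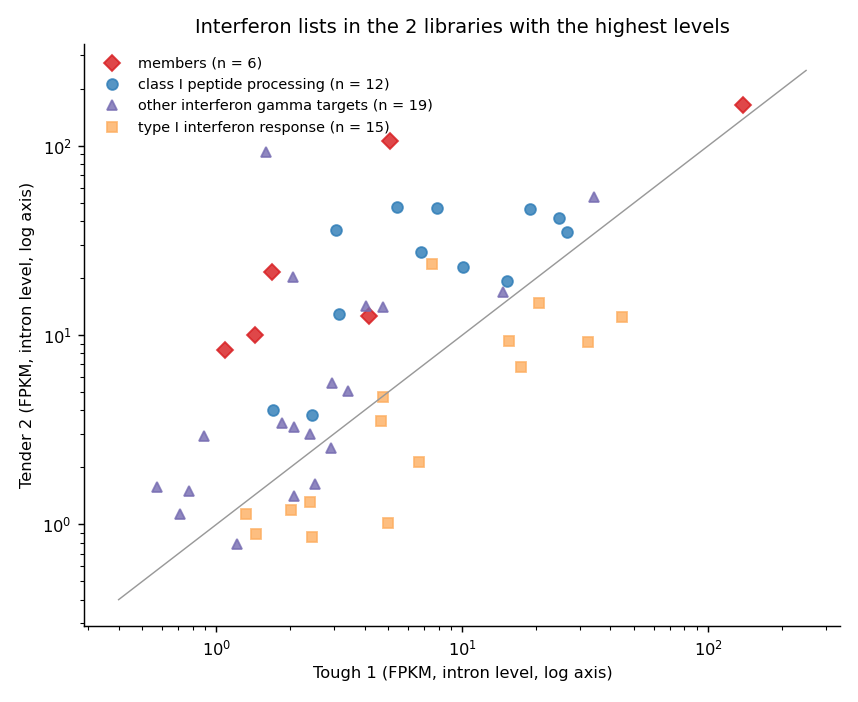
Intron level in FPKM (log axes) in Tender 2, upward, against Tough 1, along the base, for tested genes of 4 lists, with the line of equal levels; *B2M*, *SLA-1*, *SLA-2*, *SLA-3* and *ERAP1* are left out, as copies or genes with zeros. The 6 of the 9 genes lie above the line, *CD74* close to it at 163 FPKM in Tender 2 and 138 in Tough 1, and 14 of the 15 type I interferon genes lie below it.

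Markers of the cells that could carry these transcripts were read in the same libraries, on introns. The sum of 18 macrophage and monocyte markers was 15.2 to 63.4 FPKM in the Tough libraries (highest in Tough 1), against 111 FPKM in Tender 2 and a range of 19.0 to 46.3 FPKM over the 5 remaining Tender libraries. In Tender 2, 9 of the 12 tested markers were highest, among them *C1QA* at 23.4 FPKM and at most 9.49 elsewhere, *CD14* at 4.94 and at most 1.39, and *AIF1* at 3.40 and at most 0.892. *MARCO*, *MSR1* and *CD86* are listed at 0 in all 12 libraries. Between the groups *CD14* had the smallest p (log2 fold change -1.01, limma on introns, adjusted p = 1.00). The median log2 fold change of the tested markers of this list was -0.37 with all libraries and -0.084 without Tender 2. The sum of 28 annotated T and NK cell markers was 1.85 to 9.05 FPKM in the Tough libraries, against 10.5 FPKM in Tender 2 and a range of 2.01 to 4.44 FPKM over the 5 remaining Tender libraries. Of the 3 tested markers of this list, 0 were highest in Tender 2 and 2 were highest in Tough 1. Among markers under the filter, *CD3E*, a chain of the T cell receptor complex, stood at 1.56 FPKM in Tender 2, against a maximum of 0.894 elsewhere. *CXCR3*, the receptor of CXCL9 and CXCL10, stood at 0.371 in Tender 2 and at 0 in the other 11 libraries. *CD8B*, *CD28*, *PRF1*, *NCR1* and *EOMES* were among 9 markers of this list at 0 in all libraries.

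Of 10 B cell markers, 7 are listed at 0 in every library, *CD79A* and *MS4A1* among them, and the sum was 0 to 1.87 FPKM in the Tough libraries, against 0.274 FPKM in Tender 2 and up to 2.11 FPKM in the other Tender animals. *FLT3*, *XCR1*, *CLEC9A* and *CCR7* of the dendritic cell list are at 0 throughout, and the sum of that list was 8.26 FPKM in Tender 2, below 8.78 in the highest Tough and 10.1 in the highest Tender library. In Tender 2 the highest level was reached by 1 of 10 tested endothelial genes, 0 of 8 fibroblast genes, 1 of 7 adipocyte genes and 3 of 17 skeletal muscle genes. The summed muscle markers were 24183 to 30444 FPKM in the Tough libraries, against 29882 FPKM in Tender 2 and a range of 19856 to 31669 FPKM over the 5 remaining Tender libraries. The part of macrophages, of T and NK cells or of the amount of each cell type in the values of the 9 genes was not tested.

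The genes most like the 9 over the 12 libraries were named by the correlation of log2(FPKM + 0.5), by assigned transcripts, with the mean z score of the 6 tested genes, as a description. That score includes *CIITA*, whose assigned values count its 3′ transcripts in all libraries but Tender 2 and Tender 4. *PSMB10*, the third exchanged subunit of the immunoproteasome, came first (r = 0.99), then *PSMB8* (0.97), *PSME2* (0.95), *TAP1* (0.95), *TAPBP* (0.94), *SLA-DMB* (0.94), *PSMB9* (0.94), *CNDP2* (0.93), *CORO1A* (0.93) and *C2* (0.93). Of these 10, 7 belong to the class I or class II list, and each had its highest level in Tender 2. Without Tender 2 the order was another one, with *COTL1* (r = 0.94), *EN1* (0.94), *CD52* (0.94), *TBCD* (0.93), *PNPLA6* (0.93), *PSMB10* (0.92), *SYDE1* (0.92), *TMED1* (0.92), *CAMK2N1* (0.92) and *MGMT* (0.91) over 11 libraries, all of them highest in Tough 1 among those 11. *PSMB10* was the gene in both lists, with 34.5 FPKM in Tender 2 and 3.11 to 11.6 FPKM in the others.

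Within a group, shear force and the intron level of the genes, as log2(FPKM + 0.5), were compared over 14 relations of 6 animals each. No relation passed the adjustment (smallest adjusted p = 0.314, exact permutation over 720 pairings, two-sided). The smallest p was that of *CIITA* in the Tender group (Pearson r = -0.93, exact p = 0.025; Spearman rho = -0.77, exact p = 0.103), and r was 0.17 without Tender 2 and Tender 3, the 2 animals farthest from the median shear force. *GBP1* had r = -0.88 in the Tender group (exact p = 0.075; rho = -0.43, exact p = 0.419) and 0.47 without those 2 animals. Both relations rest on those 2 animals, of which Tender 2 had the lowest shear force, 2.18 kg/cm2, and the highest intron level of both genes. By assigned transcripts *CIITA* was not highest in Tender 2, with 0.608 FPKM against 0.174 to 3.05 FPKM in the rest of the Tender group. Its relation to shear force on that measure was not tested. *IFI30* in the Tender group had the same sign, with r = -0.80 (exact p = 0.135, rho = -0.43 with exact p = 0.419). Unlike *CIITA* and *GBP1*, *IFI30* kept its sign without those 2 animals, at r = -0.85 over the few animals left. *GBP2* in the Tender group had the opposite sign, with r = 0.79 (exact p = 0.1125; rho = 0.54, exact p = 0.297), and -0.34 without those 2 animals. In the Tough group r of *GBP1* was 0.50 (exact p = 0.303; rho = 0.66, exact p = 0.175) and -0.35 without Tough 1 and Tough 6.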

How the data were processed

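Whole *Longissimus dorsi* RNA of 12 animals was sequenced as paired reads (TruSeq libraries, HiSeq2000, 4 samples a lane), of 76 bases per the labels, while the study's methods give a slightly shorter length. Per the labels, the authors used Trim Galore for trimming, FastQC for quality control, aligned the reads to Sscrofa11.1 with TopHat2 2.1.0 and assembled each library with Cufflinks 2.2.1. The deposited values are FPKM of assembled transcripts, with a 95% interval and a read depth. The deposited score column was not used. The deposited files hold no read counts, and the read totals that the study lists for each sample were not used here. For lane and fattening batch of each sample: not given in the sources used here. The authors' own test ran on alignments, which were not analysed here.

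Transcripts were matched by strand and exon to NCBI Annotation Release 106. Gene FPKM was the length-weighted sum of transcripts lying to at least 50% in the gene. limma 3.58.1 (R 4.3.3) with a trend was fitted on log2(FPKM + 0.5), for genes with a mean above 0.5 FPKM. This scale understates the change of low genes. A call needed a p up to 0.05, an adjusted p up to 0.1 and a 1.5-fold change. Exact permutation tests enumerated all splits of the animals. Python 3.11.15, numpy 2.4.6, pandas 2.3.3, scipy 1.17.1, matplotlib 3.10.9 and biopython 1.88 were used, and the model was tested on simulated data.

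The 9 genes and the lists were chosen with earlier results of these data known. Named were all 9 genes, in each list the 4 with the largest ratio of Tender 2 to the other libraries and the 2 with the smallest p, and the 10 genes most correlated with the 9. Other genes were named for their role, after their values were seen. Some genes that this rule would name are not reported here. Alternatives changed the pseudocount, filter, scaling, transcript rule and model, and left out each library. The animal numbers of the groups are only names.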

Additional observations from a re-analysis of the deposited data

Results flagged for a closer look

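A library was listed when its distance to the nearest other library of its group of 6, as a share of the range of that group, exceeded the 95% critical value of Dixon's test. With normally distributed values, chance exceeds it in about 1 of 20 groups. FPKM with zeros and their sums need not be so distributed, and the rate over all genes was not computed. In the Tender group the high library was Tender 2 in all of the following. *GBP1* stood there at 169.9 FPKM by assigned transcripts and 106.4 by introns, *IRF1* at 19.98 and 21.5, *CXCL10* at 10.2 and 10.02, *IFI30* at 11.9 and 12.6, and *CD74* at 192.5 and 163.3. *CXCL9* had 8.32 FPKM both per exon base and by introns, *GBP5* 4.24 per exon base and 2.42 by introns, and *CIITA* 0.933 by introns.

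In the Tough group the high library was Tough 1 for *GBP2* (1.96 FPKM by assigned transcripts) and *CD74* (226.1 by assigned transcripts and 138 by introns). The assigned value of *CD74* there also counts bases outside the gene. *CXCL9* had 0.841 FPKM in Tough 4 by assigned transcripts, the only library in which its transcript passed that rule.

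Among summed lists on introns, Tender 2 stood apart in interferon gamma signalling (152.4 FPKM), other interferon gamma targets (253.6), class II presentation (229.2), macrophage and monocyte markers (111.4) and T and NK cell markers (10.5). Tough 1 stood apart in the type I interferon response (175 FPKM). The B cell sum stood apart in 1 Tough library (1.87 FPKM) and in the Tender group, where Tender 1 was high at 2.11 FPKM and Tender 2 had 0.274.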

How the results depend on the processing

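Between the groups 0 genes were called in every alternative run except per exon base without Tender 2, which called 2 of 9413 genes, neither of them among the 9. The intron level and the combinations with Tender 2 left out were chosen after seeing the data. The count at p of at most 0.05, 223 genes, moved by over 1.5 times to 369 without a filter, 343 with the highest transcript alone, 655 with array weights, 369 without Tough 1, 375 without Tender 1, 411 without Tender 4 and 147 without Tender 5. With the animal number as a replicate block, 0 genes were called and 177 were at that level. Same-numbered animals had correlations from -0.22 to 0.020, and the block changed no call.

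Of 157 fold changes of the 6 tested genes, 137 kept their sign and 20 reversed. None was called. With 90% of a transcript's bases required in the gene, *GBP1* had 1.37, *CIITA* -0.041 and *CD74* 0.73. The unadjusted limma p of *GBP1* was 0.027 there and did not pass the adjustment. By that rule *GBP1* is listed at 0 in Tender 1, Tender 2 and Tender 5, where no transcript met it. Without Tender 2, *IRF1* had 0.15, *IFI30* 0.096 and *CD74* 0.22. By introns without Tender 2, *GBP1* had 0.036, *IRF1* 0.17, *IFI30* 0.043 and *CD74* 0.23. Per exon base without Tender 2, they had 0.051, 0.16, 0.094 and 0.20. *CXCL10* had 0.22 with a pseudocount of 0.1 and 0.20 with array weights, and *CIITA* -0.00073 with array weights. *CD74* had 0.0046 without Tough 2, 0.092 without Tough 3 and 0.035 without Tough 6. Leaving out each library gave ranges of -1.36 to -0.028 for *GBP1*, -0.72 to 0.15 for *IRF1*, -0.41 to -0.090 for *CXCL10*, 0.13 to 0.61 for *CIITA*, -0.40 to 0.096 for *IFI30* and -0.50 to 0.22 for *CD74*. The cause of these reversals was not tested. The number of genes highest in Tender 2 stayed within 1.5 times of the main count in every alternative run.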
